A study of Homo sapiens with 4 samples.

Results

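Nascent transcription of 10 p53 target and stress arrest genes was followed in Karpas 299, an established human anaplastic large cell lymphoma line that carries the receptor CD30. The genes were chosen by name, with earlier results of these data known: CDKN1A, BTG2, PLK3, GADD45A, GADD45B, MDM2, JMY, DRAM1, SESN1 and TP53INP1. All 10 had 1 sense entry each among 22798 sense genes. The assay was Bru-seq: cells take up bromouridine, and the labelled RNA is pulled down and sequenced, so the sequenced RNA is that made while the label was present. All cells were treated for 3 h and labelled for the last 30 min.

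The 4 libraries form 2 experiments, with 1 library per condition. In the first, cells received SM-164, or DMSO as its control, at a dose not given in the labels. SM-164 is a compound of the bivalent Smac mimetic class, made to block IAPs, the proteins that inhibit apoptosis. In the second, cells lay on Chinese hamster ovary cells engineered to carry the CD30 ligand (CD30L+ CHO) or on CHO cells without it, and were collected by gentle pipetting. The library totals were 26217590 reads for SM-164, 31030478 for DMSO, 45535366 for CD30L+ CHO and 45885630 for CHO. With no repeated condition there is no replicate check, and every interval below covers counting error only.

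p53 is a transcription factor that is held low by the ubiquitin ligase MDM2 and is released when DNA is damaged or a cell is stressed. It then switches on genes that stop the cell cycle, repair DNA, start autophagy or kill the cell, and also MDM2, which closes a feedback loop. Several of these genes answer to other signals as well: GADD45B is known as an NF-kB target, and JMY is known as a cofactor that helps the acetylase p300 at p53 target genes rather than as a classical target.

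The promoters below show the sequence in front of the feedback gene MDM2 and of 3 genes that were higher on CD30L+ CHO cells. RefSeq windows (GRCh38.p14) were found for 8 of the 10 genes, and each printed run is the 250 bases before a start, 5′ to 3′ on the gene's strand, which is plus for all 4. Capitals in MDM2 mark the 2 matches to the p53 response element consensus, and capitals in the others mark CCAAT boxes (CCAAT) and GC boxes (GGGCGG), on either strand.
MDM2, inner start, chr12:68808774-68809023: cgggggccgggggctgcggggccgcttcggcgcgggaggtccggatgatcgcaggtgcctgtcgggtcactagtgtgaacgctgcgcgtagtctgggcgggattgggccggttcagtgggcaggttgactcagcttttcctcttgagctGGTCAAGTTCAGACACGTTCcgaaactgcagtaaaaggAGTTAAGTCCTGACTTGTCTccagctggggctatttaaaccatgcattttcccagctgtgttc
BTG2, chr1:203305269-203305518: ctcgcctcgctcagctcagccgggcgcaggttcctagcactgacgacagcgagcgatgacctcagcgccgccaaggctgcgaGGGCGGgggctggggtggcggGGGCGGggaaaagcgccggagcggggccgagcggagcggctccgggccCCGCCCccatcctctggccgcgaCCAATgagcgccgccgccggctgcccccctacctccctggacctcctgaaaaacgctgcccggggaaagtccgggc
DRAM1, chr12:101877330-101877579: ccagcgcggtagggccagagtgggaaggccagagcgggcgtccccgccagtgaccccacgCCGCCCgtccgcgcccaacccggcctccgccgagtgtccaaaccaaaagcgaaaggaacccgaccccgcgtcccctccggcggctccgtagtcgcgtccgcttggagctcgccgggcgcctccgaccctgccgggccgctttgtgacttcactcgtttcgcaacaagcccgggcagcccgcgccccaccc
JMY, chr5:79235881-79236130: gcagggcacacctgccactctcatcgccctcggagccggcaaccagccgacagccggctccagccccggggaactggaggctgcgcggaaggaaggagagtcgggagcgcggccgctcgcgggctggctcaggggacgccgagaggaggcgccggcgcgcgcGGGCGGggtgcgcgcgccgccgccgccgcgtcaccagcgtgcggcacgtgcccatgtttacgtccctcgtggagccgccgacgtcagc

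The p53 consensus was searched as 2 half-sites of 10 bases without a spacer, with at most 3 mismatches. A match lay in 4.36% of all 35116 RefSeq windows and in at least 1 window of 5.38% of 27305 genes. In the MDM2 window, which lies before the inner start known as the p53-responsive promoter, one match had 2 mismatches and the other had 3. SESN1 had 1 match with 3 mismatches, before 1 of its 3 starts. No match to it lay in the windows of CDKN1A, BTG2, PLK3, DRAM1, GADD45B or JMY. The NF-kB consensus, present in 5.21% of windows and for 6.28% of genes, was in none of the windows of these 8 genes, which is near that background. AP-1 (TGANTCA, 6.57% of windows, 8.06% of genes) was only in MDM2, before its inner start. CCAAT boxes occur in 32.0% and GC boxes in 42.6% of all windows; BTG2 held both kinds, and DRAM1 and JMY held GC boxes. GADD45B was the 1 gene with a TATA box (TATAAA, 10.7%). Absence of a match says only that these letters are not in this window.

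Levels per gene length spread widely. Values are the authors' RPKM, reads scaled to counted bases and to the library total, with exact Poisson 95% intervals. With DMSO, GADD45B (4.33), GADD45A (4.32) and MDM2 (4.08) were highest, with overlapping intervals, followed by JMY (3.56), PLK3 (1.49) and BTG2 (0.812). CDKN1A (0.289), SESN1 (0.262), DRAM1 (0.234) and TP53INP1 (0.156) were low in DMSO. So the gene of p21, the cyclin-dependent kinase inhibitor that is the best known arrest gene of p53, was among the least transcribed of the 10.

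**Figure D1:**
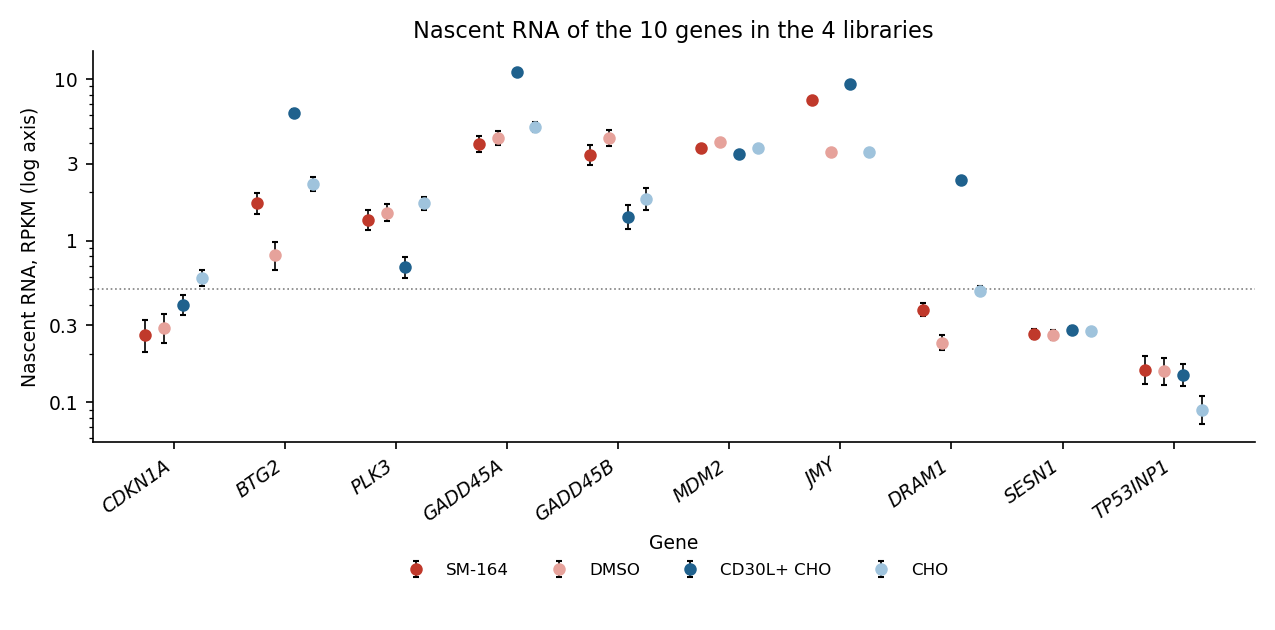
RPKM (log axis) of each gene in the SM-164, DMSO, CD30L+ CHO and CHO libraries, 1 point per library; bars are exact Poisson 95% intervals, and the dotted line is an RPKM of 0.5. On CD30L+ CHO cells GADD45A reached 11.1 and JMY 9.35, while MDM2 lay between 3.46 and 4.08 in every library.

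The order differed between libraries. With SM-164, JMY led at 7.38, and GADD45A (3.97), MDM2 (3.74) and GADD45B (3.39) followed with intervals that overlap from one to the next. On CD30L+ CHO cells the order was GADD45A (11.1), JMY (9.35), BTG2 (6.20), MDM2 (3.46), DRAM1 (2.39), GADD45B (1.402), PLK3 (0.684), CDKN1A (0.400), SESN1 (0.282) and TP53INP1 (0.148), and no neighbours overlapped. On CHO cells GADD45A (5.06), MDM2 (3.74) and JMY (3.52) led without overlap, and BTG2 (2.25), GADD45B (1.81) and PLK3 (1.70) overlapped from one to the next.

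A gene entered a comparison if it had 300 or more counted bases and if its RPKM, averaged over both libraries, reached 0.5. A gene was called at 2-fold or more on the scale log2((RPKM + 0.25)/(RPKM + 0.25)), which understates differences of low genes. Folds are ratios of counts over library totals, without the added 0.25, with exact conditional (Clopper-Pearson) 95% intervals. Less RNA per cell and fewer transcribing cells cannot be told apart in such bulk libraries.

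The second experiment asked what the CD30 ligand does beyond contact with CHO cells, and here the list split. BTG2, GADD45A, JMY and DRAM1 were higher on CD30L+ CHO cells than on CHO cells, and the stress kinase gene PLK3 was lower. That is 4 higher and 1 lower of 7 genes tested, against 0.979% and 0.731% of all 7661 genes tested. The list was chosen with earlier results of these data known, so this contrast is a description and not a test. At 1.5-fold the same genes were called, where 2.62% of all genes were higher and 4.99% lower. MDM2 and GADD45B were tested and were under 2-fold. CDKN1A, SESN1 and TP53INP1 were below the expression minimum, and without that minimum the same 4 and 1 of all 10 genes were called. DRAM1 met the minimum solely because of its CD30L+ CHO value, so a difference was bound to follow for it. The median log2 ratio of the 7 was 1.09, that of all genes tested -0.12, and that of all 10 without the minimum 0.12.

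Among the arrest genes, BTG2 encodes an antiproliferative protein that brings a deadenylase to messenger RNAs. Its RPKM reached 6.20 on CD30L+ CHO cells, against 2.25 on plain CHO cells, and 1.71 with SM-164, against 0.812 with DMSO. It was 2.75-fold higher on CD30L+ CHO cells (2.46 to 3.09), from 1148 against 420 reads. BTG2 was thus higher in each stimulated library than in its own control. GADD45A, a growth arrest and DNA damage gene whose protein binds PCNA and p21, had an RPKM of 11.1 on CD30L+ CHO cells, against 5.06 on plain CHO cells. It was 2.18-fold higher (2.00 to 2.39), from 1592 against 735 reads, and its log2 ratio was 1.09, or 0.99 with a pseudocount of 1. In the other experiment its values were 3.97 with SM-164 and 4.32 with DMSO, with overlapping intervals.

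GADD45B is the paralog of GADD45A. Its RPKM was 1.402 on CD30L+ CHO cells, against 1.81 on plain CHO cells, a ratio of 0.770 (0.611 to 0.968) from 136 against 178 reads. Its log2 ratio of -0.32 lay near the median of -0.26 among genes of about the same length.

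PLK3 encodes a polo-like kinase that acts in the stress response and can phosphorylate p53. Its level was 0.684 RPKM on CD30L+ CHO cells, against 1.70 on plain CHO cells, and 1.34 for SM-164, against 1.49 for DMSO, so the CD30L+ CHO library stood below the other 3. The ratio on CD30L+ CHO over CHO cells was 0.400 (0.334 to 0.477), from 175 against 441 reads, a log2 ratio of -1.07. This call did not hold under other scaling: the log2 ratio was -0.90 with TMM scaling and -0.86 after subtracting the median of genes of like length. CDKN1A was at 0.400 on CD30L+ CHO cells, against 0.587 on plain CHO cells, a ratio of 0.681 (0.566 to 0.818) from 198 against 293 reads, below the expression minimum.

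In the feedback and cofactor group, MDM2 was nearly level. Its RPKM was 3.46 on CD30L+ CHO cells, against 3.74 on plain CHO cells, a ratio of 0.925 (0.892 to 0.958) and a log2 ratio of -0.11, against -0.12 for the median of all genes. TMM scaling moved the median of all genes by 0.17 in this comparison and turned the MDM2 log2 ratio to 0.09, so no direction can be given for it. JMY, which also nucleates actin filaments, had an RPKM of 9.35 on CD30L+ CHO cells, against 3.52 on plain CHO cells. It was 2.66-fold higher (2.61 to 2.71), and its 38783 against 14707 reads made it the most precisely counted of the 10.

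DRAM1 encodes a lysosomal membrane protein known for autophagy induced by p53, and it had the highest ratio of the list. Its RPKM was 2.39 on CD30L+ CHO cells, against 0.491 on plain CHO cells, and 0.374 with SM-164, against 0.234 with DMSO. It was 4.86-fold higher on CD30L+ CHO cells (4.55 to 5.20), from 5040 against 1044 reads. Its place was 15 from the top of 7661 genes, a set that DRAM1 entered solely through its CD30L+ CHO value. The other stress genes of low level differed less. SESN1, a sestrin that restrains the growth kinase mTORC1, had an RPKM of 0.282 on CD30L+ CHO cells, against 0.275 on plain CHO cells, a ratio of 1.03 (0.954 to 1.11). TP53INP1, a nuclear stress protein induced by p53, had 0.148 on CD30L+ CHO cells, against 0.0903 on plain CHO cells, a ratio of 1.64 (1.27 to 2.14) from 158 against 97 reads.

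**Figure D2:**
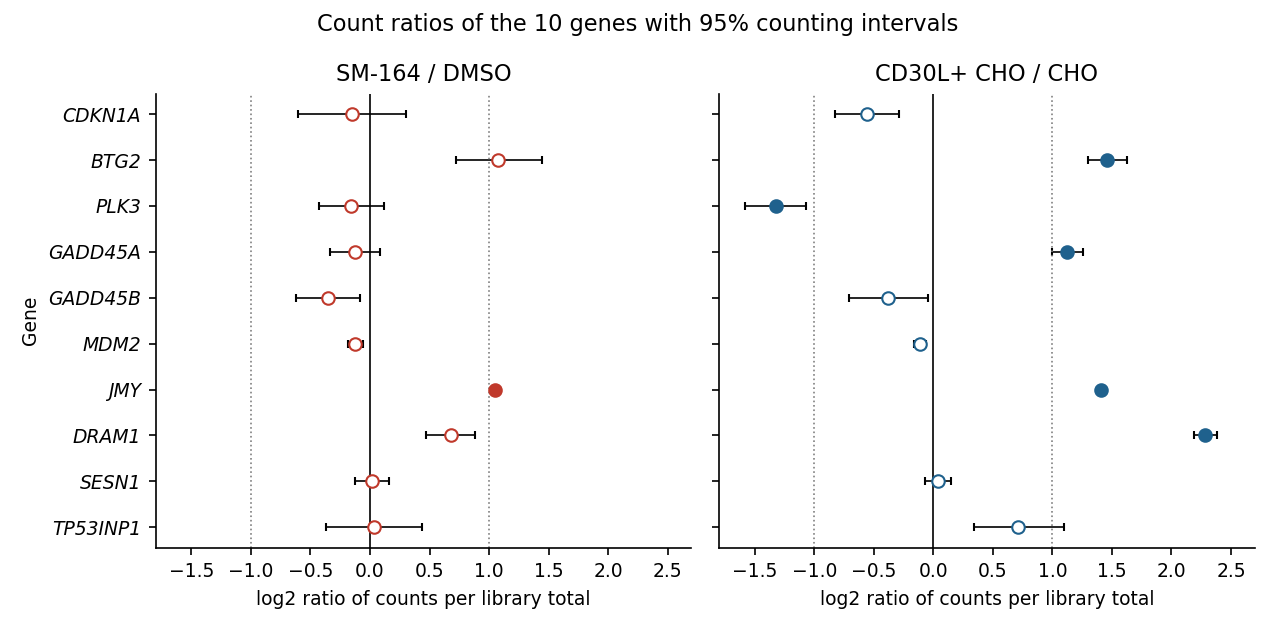
log2 of the count ratio for SM-164 over DMSO (left) and CD30L+ CHO over CHO (right), with exact conditional 95% intervals; filled points are genes called at 2-fold on the RPKM scale with 0.25 added, and dotted lines mark 2-fold. DRAM1, BTG2, JMY and GADD45A lie right of 2-fold on the right side, and JMY alone is filled on the left.

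The first experiment asked which genes an IAP antagonist alters within 3 h, and fewer of the 10 genes were called there. JMY was the 1 gene of 6 tested that was at least 2-fold higher with SM-164, and 0 were lower, against 0.19% and 0.0634% of 7881 genes tested. At 1.5-fold, BTG2 joined JMY, for 2 higher and 0 lower, where 0.787% of all genes were higher and 1.1% lower. The median log2 ratio of the 6 was -0.12, and that of all genes tested was -0.04. JMY had an RPKM of 7.38 with SM-164, against 3.56 with DMSO, which is 2.08-fold higher (2.02 to 2.13). Its log2 ratio of 1.00 lay just past the threshold, and it was 0.88 with a pseudocount of 1 and 0.99 after subtracting the length trend.

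BTG2 lay just short of the call with SM-164. Its log2 ratio was 0.88, at rank 21 from the top, and its count ratio without a pseudocount was 2.11 (1.65 to 2.72) from 182 against 102 reads. DRAM1 was below the expression minimum in this comparison, where its ratio was 1.60 (1.39 to 1.85) from 454 against 336 reads.

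The other genes stayed within a narrow range with SM-164. GADD45A was at 0.918 of its DMSO level (0.793 to 1.06) and PLK3 at 0.898 (0.743 to 1.08). GADD45B was at 0.784 (0.649 to 0.944), a log2 ratio of -0.33 where genes of like length had a median of -0.23. MDM2 had an RPKM of 3.74 with SM-164 and 4.08 with DMSO, a ratio of 0.918 (0.879 to 0.959). CDKN1A had 74 reads with SM-164 and 97 with DMSO, a ratio of 0.903 whose interval of 0.658 to 1.23 allows a difference either way. SESN1 (1.01, 0.915 to 1.11) and TP53INP1 (1.03, 0.775 to 1.36) were near 1 and, like CDKN1A, below the expression minimum.

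The main comparisons share no library, so their counting errors are separate. Stimulus, co-culture and experiment differ together between them and cannot be told apart in any difference given here. The difference of the log2 count ratios, CD30L+ CHO over CHO minus SM-164 over DMSO, is given with its normal 95% interval from counting error. It was 1.60 for DRAM1 (1.38 to 1.83), 1.25 for GADD45A (1.01 to 1.49), 0.36 for JMY (0.31 to 0.40) and -1.17 for PLK3 (-1.53 to -0.80). DRAM1 was below the expression minimum in SM-164 over DMSO. On CD30L+ CHO over CHO it met that minimum solely because of its CD30L+ CHO value, which favours a positive difference. For BTG2 the difference was 0.38, with an interval from -0.0019 to 0.77, and for MDM2 0.01 (-0.07 to 0.09). For TP53INP1, below the expression minimum, it was 0.68 (0.14 to 1.21). The intervals of CDKN1A (-0.41, -0.92 to 0.10), GADD45B (-0.03, -0.44 to 0.39) and SESN1 (0.03, -0.15 to 0.20) include 0. With TMM scaling the differences of BTG2 (0.54, 0.16 to 0.93), MDM2 (0.17, 0.09 to 0.25) and SESN1 (0.19, 0.0099 to 0.36) have intervals above 0, so for these 3 the answer depends on the scaling. For DRAM1, GADD45A, JMY, TP53INP1 and PLK3 the interval lay on the same side of 0 under both scalings. How far a repeat of either experiment would move these values cannot be told from 1 library per condition.

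**Figure D3:**
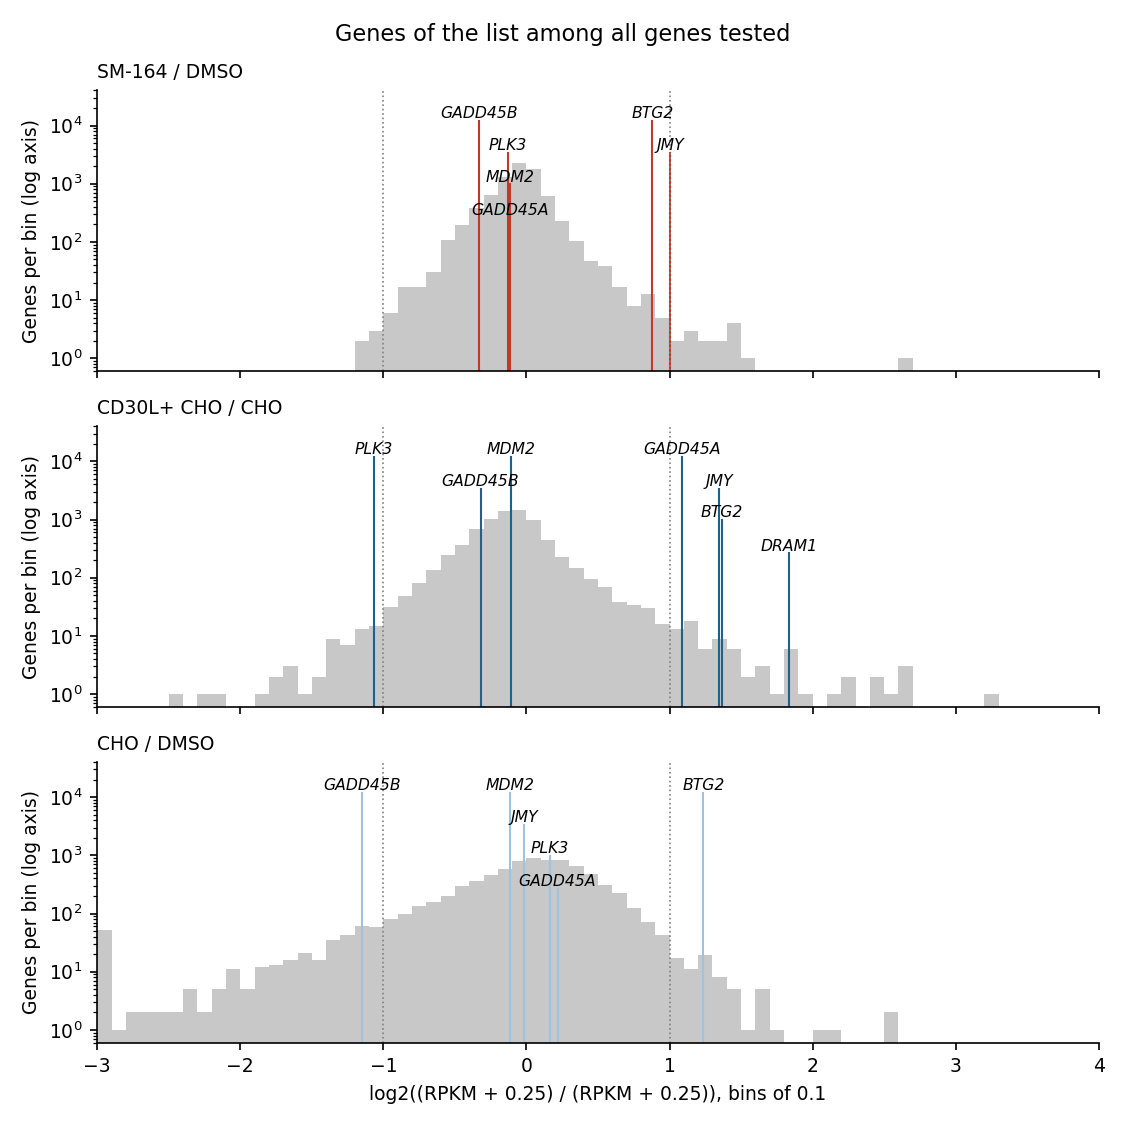
Histograms of the log2 ratio of all genes tested (bins of 0.1, log axis; ratios below -3 are in the leftmost bin), for SM-164 over DMSO, CD30L+ CHO over CHO and CHO over DMSO, with the tested genes of the list as lines; dotted lines mark 2-fold. DRAM1, BTG2, JMY and GADD45A lie in the upper tail of the middle histogram.

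CHO over DMSO served as a yardstick, and here co-culture and experiment cannot be told apart. BTG2 was higher on CHO cells, at 2.25 against 0.812 with DMSO, a ratio of 2.78 (2.24 to 3.49). GADD45B was lower on CHO cells, at 1.81 against 4.33 with DMSO, a ratio of 0.419 (0.346 to 0.507). That is 1 higher and 1 lower of 6 tested, against 0.879% and 4.52% of 8081 genes tested. At 1.5-fold the same genes were called, where 7.07% of all genes were higher and 10.7% lower. The GADD45B log2 ratio of -1.15 came to -0.64 after subtracting the median of genes of like length, which was -0.51. Among genes below the expression minimum, CDKN1A was 2.04-fold (1.62 to 2.60) and DRAM1 2.10-fold higher (1.86 to 2.38) on CHO cells, and TP53INP1 was at 0.581 (0.438 to 0.768). JMY (0.989, 0.964 to 1.01) and SESN1 (1.05, 0.963 to 1.14) were near 1, and MDM2 was at 0.918 (0.884 to 0.953). The JMY log2 ratio of -0.01 came to -0.12 with TMM scaling and to -0.11 after subtracting the length trend. GADD45A was at 1.17 (1.04 to 1.32), and its log2 ratio of 0.22 came to 0.65 after subtracting that trend. PLK3 was at 1.14 (0.978 to 1.34). For BTG2 the ratio between the controls, 2.78, stands beside 2.75 for the ligand; both use the CHO library.

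Markers of other cell types were mostly low. Among 10 fibroblast or epithelial-like markers, the summed RPKM was 0.309 on CD30L+ CHO cells, against 0.533 on plain CHO cells, and 0.637 with SM-164 and 0.675 with DMSO, and no marker reached 0.5 in any library. Of 8 markers of the lymphoma line, 6 were above 0.5 in every library, among them TNFRSF8, the gene of CD30 (picked after its values were seen), at 12.3 with SM-164 and 9.59 with DMSO, and at 5.10 on CD30L+ CHO cells, against 4.97 on plain CHO cells. The remaining markers, ALK (0.0966 to 0.137) and MUC1 (0.208 to 0.453), were below 0.5 in every library. The summed RPKM of these 8 was 98.5 with SM-164 and 83.9 with DMSO, and 62.4 on CD30L+ CHO cells, against 46.3 on plain CHO cells, and its part in the results was not tested. Of 6 B cell and myeloid markers, 4 had no reads with SM-164 and 3 in each other library. CSF1R, a macrophage receptor gene, passed the minimum, at 0.752 with SM-164 and 0.733 with DMSO, and 0.653 on CD30L+ CHO cells, against 0.735 on plain CHO cells. LYZ, the lysozyme gene, reached 0.317 on CD30L+ CHO cells, against 0.600 on plain CHO cells. BATF3, a transcription factor gene among the lymphoma line markers, had an RPKM of 13.3 on CD30L+ CHO cells, against 4.94 on plain CHO cells (2.68-fold, 2.57 to 2.80), and 19.8 with SM-164, against 12.1 with DMSO (1.64-fold, 1.58 to 1.70). The cytotoxic granule genes GZMB and PRF1 ran the other way, with ratios of 0.726 (0.621 to 0.846) and 0.658 (0.584 to 0.741) on CD30L+ CHO over CHO cells, and 0.788 (0.691 to 0.897) and 0.775 (0.708 to 0.848) for SM-164 over DMSO. On CHO over DMSO all 6 tested line markers had log2 ratios below 0, with a median of -0.98, and GZMB, PRF1 and BATF3 were called lower. These genes beyond BATF3 were picked after their values were seen. Whether hamster reads align to any of the 10 genes was not tested.

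Most other genes of the p53 pathway were under 2-fold, as were most of all genes tested. MDM4, the partner of MDM2 in holding p53 down, had ratios of 1.06 (1.02 to 1.11) with SM-164 and 1.11 (1.07 to 1.15) with CD30L+ CHO cells. Of 78 pathway genes outside the list, MDM4 among them, 50 were tested on CD30L+ CHO over CHO cells, and 2 (4.0%) were at least 2-fold higher and 1 (2.0%) lower, against 0.979% and 0.731% of all genes. Their median log2 ratio was -0.05, against -0.12 for all genes. With SM-164, 52 were tested and 0 were called in either direction, against 0.19% higher and 0.0634% lower of all genes, with a median of 0.00. A count of 0 among 52 genes is near the background.

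The 3 called genes have different roles. FAS, a death receptor gene, had an RPKM of 4.84 on CD30L+ CHO cells, against 1.13 on plain CHO cells, a 4.28-fold difference (4.03 to 4.55), and 1.77 with SM-164 against 1.01 with DMSO (1.76-fold, 1.61 to 1.93). TP53BP2, whose protein ASPP2 binds p53 and steers it towards apoptosis genes, had 7.02 on CD30L+ CHO cells, against 3.20 on plain CHO cells, a 2.19-fold difference (2.14 to 2.25). With SM-164 it was 1.68-fold higher (1.61 to 1.75). GPX1, an antioxidant enzyme gene, had 0.297 on CD30L+ CHO cells, against 0.925 on plain CHO cells, a ratio of 0.322 (0.171 to 0.576) that rests on 16 against 50 reads. GPX1 met the expression minimum solely because of its CHO value, which favours a lower call.

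Some genes near the threshold were chosen after their values were seen. ATF3, a stress transcription factor gene, had a log2 ratio of 0.99 on CD30L+ CHO over CHO cells (2.17-fold by counts, 2.08 to 2.27). PMAIP1, the gene of the BCL2 family killer NOXA, had 0.90 (1.89-fold, 1.79 to 2.01). NINJ1 had 0.73 (2.10-fold, 1.79 to 2.48). It met the expression minimum solely because of its CD30L+ CHO value (0.784, against 0.373 on plain CHO cells), which favours a higher ratio. TP63, the gene of the p53 relative p63, had an RPKM of 5.08 on CD30L+ CHO cells, against 3.12 on plain CHO cells, a 1.63-fold difference (1.61 to 1.65). Some p53 targets below 1.5-fold in that comparison were also picked afterwards. Negative log2 ratios were those of BAX, a pore-forming death protein (-0.14), DDB2, a repair protein (-0.29), and ZMAT3, an RNA-binding protein (-0.17). Positive ones were, among others, those of CCNG2 (0.49), SAT1 (0.38), TNFRSF10B (0.18) and CCNG1 (0.11). Of the 50 pathway genes outside the list that were tested there, 22 had positive and 28 negative log2 ratios. Negative values were common among all genes tested there, whose median of -0.12 lay below the median of -0.05 of these 50.

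**Figure D4:**
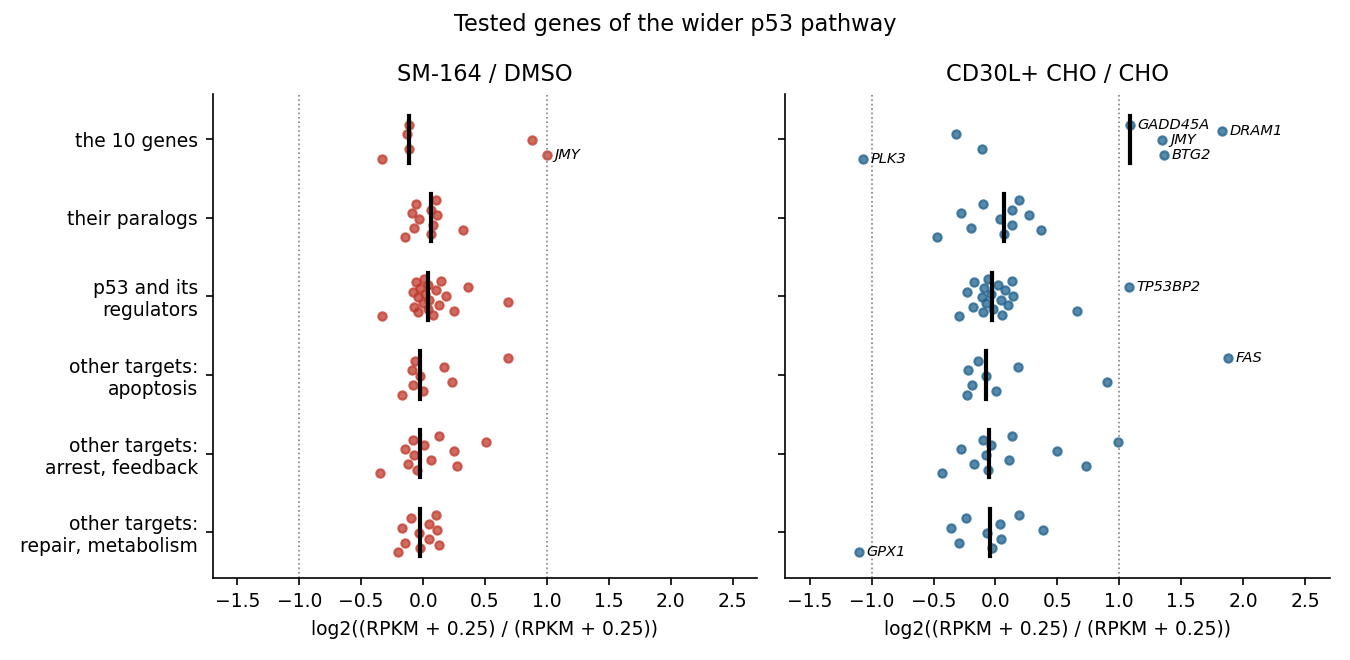
log2 ratios of tested genes of the list, of their paralogs and of 4 further groups of p53 pathway genes, for SM-164 over DMSO (left) and CD30L+ CHO over CHO (right); black lines are medians, dotted lines mark 2-fold, and genes past 2-fold are named. FAS, TP53BP2 and GPX1 are the named genes outside the list; a gene that is in several groups is drawn in each.

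Of 16 paralogs of the 10 genes, 11 were tested in each main comparison and 0 were called in either. With 0.979% higher and 0.731% lower among all genes on CD30L+ CHO cells, and 0.19% and 0.0634% with SM-164, a count of 0 among 11 genes is near the background. Their log2 ratios ran from -0.14 to 0.32 with SM-164 and from -0.47 to 0.37 on CD30L+ CHO cells, and none reached 1.5-fold there. DRAM2, the relative of DRAM1, had an RPKM of 2.48 on CD30L+ CHO cells, against 2.41 on plain CHO cells (1.03-fold, 0.972 to 1.09). Beside BTG2 at 2.75, the ratios were 1.10 for BTG1 (1.04 to 1.17) and 1.31 for BTG3 (1.25 to 1.38). The related antiproliferative genes TOB1 and TOB2 were at 0.815 (0.703 to 0.944) and 0.852 (0.775 to 0.936). On CHO cells over DMSO, BTG1 was 1.67-fold (1.55 to 1.81) and TOB1 1.66-fold higher (1.39 to 2.00). WHAMM, the other actin nucleator of the JMY family, was 1.24-fold higher (1.16 to 1.32), and SESN2, a sestrin of higher level than SESN1, 1.15-fold (1.09 to 1.22). PLK1, the mitotic polo-like kinase gene, was at 0.703 (0.655 to 0.753), a log2 ratio of -0.47, and PLK4, the centriole kinase gene, at 1.06 (0.979 to 1.14). GADD45G had 0 reads in every library.

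The genes most like the called members were found by Euclidean distance over the 3 log2 ratios, from 4 libraries, among 7203 genes tested in all 3 comparisons; DRAM1 itself was not tested in all 3. Nearest to DRAM1 were NFKBIZ (distance 0.50), BATF (0.52) and NAMPT (0.53). NFKBIZ had log2 ratios of 0.70 with SM-164 and 2.13 with CD30L+ CHO cells, and BATF had 0.85 with SM-164 and 1.88 with CD30L+ CHO cells. JMY lay nearest to TIFA (0.19), GPR84 (0.26) and ARNTL2 (0.27), and TIFA had log2 ratios of 0.84 with SM-164 and 1.27 with CD30L+ CHO cells. BTG2 lay nearest to RNF19B (0.32), LACTB (0.55) and PPP4R4 (0.57), GADD45A to AQP9 (0.16), GBP1 (0.27) and CDC42SE1 (0.38), and PLK3 to TUBB3 (0.13), CMTM7 (0.19) and TRIB2 (0.20).

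In hg19, as the files give them, DRAM1 lies on chromosome 12 from 102271105 to 102317401 and MDM2 on the same chromosome from 69201971 to 69239212. JMY lies on chromosome 5 from 78531925 to 78623038. BTG2 lies on chromosome 1 from 203274664 to 203278729, GADD45A on chromosome 1 from 68150860 to 68154021 and PLK3 on chromosome 1 from 45266036 to 45271667. GADD45B lies on chromosome 19 from 2476123 to 2478257, and CDKN1A on chromosome 6 from 36644237 to 36655116. SESN1 lies on chromosome 6 from 109307640 to 109415708 and TP53INP1 on chromosome 8 from 95938200 to 95961615, both on the minus strand, and the other genes are on the plus strand. For each of the 10 the counted bases equal the whole span, exons and introns together. The genes span 2135 (GADD45B) to 108069 (SESN1) counted bases, and PLK3 alone overlapped another listed gene, TCTEX1D4 on the opposite strand, by 82 bases.

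The labels describe strand-specific libraries for certain samples without naming them. Reads on the opposite strand, which the list did not use, were few at 9 of the 10 genes. At MDM2 they came to 0.684% of the sense reads with SM-164, 0.827% with DMSO, 0.716% on CD30L+ CHO and 0.766% on CHO cells. GADD45B had 0 opposite-strand reads in all 4 libraries, which allows an RPKM of up to 0.0536 with SM-164. TP53INP1 was the exception: opposite-strand RPKM was 0.529 with SM-164, 0.437 with DMSO, 0.234 on CD30L+ CHO cells and 0.225 on plain CHO cells. That was 332%, 281%, 158% and 249% of its sense reads in the same order, and no other listed sense gene overlaps it. Among all 20262 opposite-strand features, 5.87% had an RPKM of at least 0.2 with SM-164, 5.94% with DMSO, 7.02% on CD30L+ CHO and 8.35% on CHO cells.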

How the data were processed

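Nascent RNA (Bru-seq) of 4 libraries was used. The submitters' processing notes name the hg19 build and, in no stated role or order, the tools bedtools 2.16.2, TopHat 1.4.1, Bowtie 0.12.8 and CASAVA 1.8.2. They name no gene annotation. The authors deposited an estimated count per feature, and 60.6% to 70.8% of the non-zero counts lay within 0.001 of a whole number. The authors deposited the signal per base (count over counted bases) and the RPKM, scaled by 1 library total per file, which was recovered from these columns.

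The rule kept sense entries and the entry with most counted bases per symbol, which left 22798 genes and dropped 186 entries. Counts were rounded for intervals. With 1 library per condition no replicate test exists, and no p-value was computed. Reads amplified by PCR and carrying no molecular identifier may be copies of one molecule, so intervals describe counting error alone. The members, gene lists, motifs and settings were chosen with earlier results of these data known. Named genes were the 10 members, MDM4, paralogs at 1.5-fold, other listed genes at 2-fold in SM-164 over DMSO or CD30L+ CHO over CHO, and the 3 nearest genes of each called member; others are marked as chosen later, and BAX, DDB2, ZMAT3, the markers other than BATF3 and the paralogs under 1.5-fold are examples outside that rule. The rule also named 1 gene that is not reported here.

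There were 11 alternative settings: pseudocounts of 0.1 and 1, no expression minimum, a mean RPKM of at least 1, at least 1000 counted bases, a 1.5-fold threshold, 2-fold where the interval also leaves out 1, the median of all genes set to 0, TMM scaling with edgeR 4.0.16 in R 4.3.3, subtraction of a running median over 301 genes ordered by counted bases, and count ratios without a pseudocount. Procedures were tested on simulated counts. The software was scipy 1.17.1, numpy 2.4.6 and matplotlib 3.10.9, with pandas 2.3.3, under Python 3.11.15.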

Additional observations from a re-analysis of the deposited data

Results flagged for a closer look

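The opposite strand of TP53INP1 had more reads per library total with SM-164 than with DMSO: 325 against 318 estimated reads from libraries of 26217590 and 31030478 reads, a count ratio of 1.21 (exact conditional 95% interval 1.03 to 1.42, counting error only). It stands here because opposite-strand reads were outside the main measurement and exceeded the control library. Of 20 such pairs of values, over the 10 genes and the 2 main comparisons, 4 had no reads in either library. Among the rest this was the 1 whose interval lay above 1; 2 lay below 1, for SESN1 (0.613) and JMY (0.672) on CD30L+ CHO over CHO cells.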

How the results depend on the processing

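On CD30L+ CHO over CHO cells, 4 genes were higher under each of the 11 alternatives except a pseudocount of 1. There 3 were higher, and GADD45A came to 0.99. Several of the settings could not remove a call. No minimum, a 1.5-fold threshold and a smaller or no pseudocount can only keep or add calls. The larger minimum of counted bases could not act, because all 10 genes exceed it. The higher RPKM minimum and the interval rule left the same 4 genes. The 1 lower gene, PLK3, was not called (0) with a pseudocount of 1 (-0.68), the median set to 0 (-0.95), TMM scaling (-0.90) or the length trend subtracted (-0.86). With SM-164 the 1 higher gene became 0 with a pseudocount of 1, and 2 (BTG2 and JMY) with a 1.5-fold threshold or without a pseudocount. With the length trend subtracted it was BTG2 (1.08) and not JMY (0.99). On CHO over DMSO, BTG2 (0.84) and GADD45B (-0.92) were both lost (0 and 0) with a pseudocount of 1, and GADD45B (0, at -0.64) with the length trend subtracted. The cause was not tested. Of 220 values of single genes under these settings, 10 lost a call, 3 gained one, and none that was called changed sign. A further 11, not called, moved by more than the half-width of their counting interval on the log2 scale. Settings that alter only the minimum, the threshold or the interval rule leave the log2 ratio itself unchanged. TMM scaling of the difference between the main comparisons was added after seeing the data; the intervals of BTG2 (0.54), MDM2 (0.17) and SESN1 (0.19) then left out 0. No paired analysis was possible because each condition has 1 library and the labels give no replicate numbers. In the DMSO library TP53INP1 (113 reads), BTG2 (102) and CDKN1A (97) had the fewest reads of the 10 genes, so counting error limits their ratios to DMSO most.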
